A study of Mus musculus with 2 samples.

Results

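Surface proteins are how emerging blood cells are told apart in the embryonic aorta, and the transcripts of 10 of them were followed here. They were Cd44, Kit, Ptprc, Itga2b, Spn, Procr, Ly6a, Ace, Cd34 and Cd93, taken by gene symbol from the 27514 genes of a single-cell count matrix, and all 10 were found. The cells came from the dorsal aorta endothelium of mouse embryos at embryonic day 10.5, of strain C57Bl6/J x B6129SF1/J. One library was wild-type and the other SP3-null, lacking the GC-box binding factor SP3, and both came from matings of Sp3 heterozygous parents. Embryos of a genotype were pooled, in a number that the sources used here do not give, and the sort kept cells that were negative for Ter119, low or negative for CD41 and positive for CD31, CD144 and ESAM. The CD41 gate acts on the protein of Itga2b, so that its transcript level describes only cells that passed the gate. Each genotype was captured once, so there was 1 library per genotype, no comparison has a replicate check, and genotype, pool and library cannot be told apart.

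Blood stem cells of the embryo arise from the wall of the aorta in an endothelial to hematopoietic transition. Arterial endothelium (AE) gives rise to hemogenic endothelium (HE), which rounds up and enters intra-aortic clusters (IAC). In the mouse, CD41 (Itga2b), CD43 (Spn) and CD45 (Ptprc) are used to order the cluster cells on their way to stem cells, with CD45 last. CD44, a hyaluronan receptor, marks endothelium on this path before any of them, and KIT, the receptor for stem cell factor, marks the clusters. PROCR, the endothelial protein C receptor, Sca-1 (Ly6a) and angiotensin-converting enzyme (Ace) are used to enrich stem cells or their precursors, while the sialomucin CD34 and the lectin-like receptor CD93 are shared by endothelium and early blood cells.

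The deposited class of each cell sets it on this path, from Wnt-high and Wnt-low AE through conflux AE, at which arterial cells converge, and pre-hemogenic endothelium (pre-HE) to HE and IAC. The Wnt-high and Wnt-low names are also used for venous endothelium (VE), and other endothelium takes the remaining cells. There were 4451 wild-type cells, with 79456081 unique molecular identifiers (UMIs, 1 per captured transcript), and 3954 SP3-null cells, with 71154918 UMIs, at medians of 14664 and 15638.5 UMIs per cell. Median depth differed between classes, from 8850 UMIs in SP3-null conflux AE to 31009 UMIs in wild-type IAC. Shares of cells were therefore taken after each cell had been thinned at random to 5000 UMIs, with shallower cells left out. Levels are CPM, the UMIs of a gene per 1000000 UMIs of its class. All intervals are 95% intervals that cover counting error only, and all but those of differences of shares are exact. The classes were assigned by the authors from expression, so that levels by class describe them and carry no test. The 2 libraries shared 5 cell barcodes.

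Some cells went against their class. In HE, 3 of 59 wild-type and 4 of 40 SP3-null cells held at least 2 UMIs over the neural genes Sox2, Tubb3 and Elavl3. They held no UMI of any of the 10 members, and 1 UMI of Cdh5, the gene of CD144, in each library. These 3 genes belong to a neural list of 6. That list as a whole was at 348 and 371 CPM in wild-type and SP3-null HE. It was higher in pre-HE, at 843 and 526 CPM, and in conflux AE, at 612 and 467 CPM. No cell of pre-HE or conflux AE reached 2 UMIs over the 3 genes. In IAC, 12 of 128 wild-type and 11 of 107 SP3-null cells held at least 2 UMIs over C1qa, C1qb, Csf1r, Cx3cr1, Mrc1 and Adgre1, markers of macrophages. The macrophage list as a whole reached 220 and 280 CPM in IAC of the wild-type and SP3-null libraries. In HE it was at 20.4 and 29.0 CPM, and at most at 4.55 CPM in every other class. The main results on HE and IAC were computed again without these cells, named the marker cells from here on, a set chosen after seeing the data. The set also holds 1 wild-type HE cell and 1 wild-type pre-HE cell with the macrophage markers. Of the other lists, that of primordial germ cells reached 409 and 561 CPM in IAC, from 49.8 and 99.4 CPM in HE. Ifitm1 made up 404.8 and 556.2 CPM of it in IAC, while the germ cell genes Dppa3 and Tfap2c were at 0 UMIs in HE and IAC of both libraries. The megakaryocyte list was at 97.7 and 93.6 CPM in IAC, mostly from Plek and Pf4, with Gp6 at 0 in both libraries, and at no more than 7.11 CPM elsewhere. The part of these lists in the levels of the members was not tested.

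The members lie on 6 chromosomes and differed widely in abundance. Cd34 (chr1:194938821-194961292) had 79134 UMIs in 7973 of the 8405 cells and Cd93 (chr2:148436651-148443535) 31409 UMIs in 7243 cells. Kit (chr5:75574987-75656722) had 5640 UMIs in 3009 cells, and Procr (chr2:155751125-155755478) 2496 UMIs in 1495 cells. Both were thus found in a large share of the cells, well beyond the hemogenic classes. Cd44 (chr2:102811141-102901669) had 1430 UMIs in 637 cells, and Itga2b (chr11:102453297-102469883) 709 UMIs in 626 cells, so that Cd44 was the more concentrated of the pair. Ptprc (chr1:138062859-138175756) had 616 UMIs in no more than 159 cells. Spn (chr7:127123637-127145552) had 271 UMIs in 154 cells. Ly6a (chr15:74994877-74998031) and Ace (chr11:105967948-105989964) were rarest, with 91 UMIs in 78 cells and 89 UMIs in 76 cells. Coordinates are those of GRCm38.p6.

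The sequences just before the gene starts are shown for 4 members whose levels the results turn on: Cd44 and Procr, which differed between the libraries in conflux AE, Kit, which rose in HE, and Ptprc, which rose in IAC. RefSeq windows of 250 bases before to 50 after the start (GRCm38.p6) were found for 8 of the 10 members. They were searched on both strands for GGGCGG, the core of the GC box that SP factors bind, TGTGGT for RUNX factors and AGATAA for GATA factors. Capitals mark a match as it reads on the strand of the gene.
Cd44, chr2:102901616-102901915, minus strand: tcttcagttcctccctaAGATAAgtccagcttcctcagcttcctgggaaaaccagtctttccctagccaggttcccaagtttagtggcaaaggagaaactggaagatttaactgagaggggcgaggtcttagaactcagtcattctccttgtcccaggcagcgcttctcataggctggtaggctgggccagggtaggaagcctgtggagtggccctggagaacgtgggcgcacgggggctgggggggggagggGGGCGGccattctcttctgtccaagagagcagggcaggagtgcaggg
Kit, chr5:75574737-75575036, plus strand: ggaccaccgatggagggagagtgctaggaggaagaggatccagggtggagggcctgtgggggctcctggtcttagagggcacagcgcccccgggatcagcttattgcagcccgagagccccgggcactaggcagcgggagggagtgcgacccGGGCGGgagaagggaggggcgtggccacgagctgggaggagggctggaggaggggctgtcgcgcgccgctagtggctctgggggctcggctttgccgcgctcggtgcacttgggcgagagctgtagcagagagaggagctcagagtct
Procr, chr2:155750967-155751266, plus strand: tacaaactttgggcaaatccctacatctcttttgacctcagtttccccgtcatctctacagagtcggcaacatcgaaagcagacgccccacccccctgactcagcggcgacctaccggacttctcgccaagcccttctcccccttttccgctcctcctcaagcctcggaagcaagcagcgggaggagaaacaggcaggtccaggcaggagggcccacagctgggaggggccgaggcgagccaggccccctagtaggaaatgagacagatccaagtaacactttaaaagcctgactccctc
Ptprc, chr1:138175077-138175376, minus strand: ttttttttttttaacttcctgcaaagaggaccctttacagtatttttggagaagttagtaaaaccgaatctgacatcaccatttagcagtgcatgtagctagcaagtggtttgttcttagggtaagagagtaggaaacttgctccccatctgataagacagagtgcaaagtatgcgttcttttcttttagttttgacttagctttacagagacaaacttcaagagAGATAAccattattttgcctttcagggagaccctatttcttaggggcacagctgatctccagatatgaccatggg
The Cd44 window held 1 GGGCGG and 1 AGATAA, the Kit window 1 GGGCGG and the Ptprc window shown 1 AGATAA. Ptprc has a further window, at chr1:138175256-138175555, that held no match. The Procr window held none of the 3 motifs. Of the other members, Ace had a window with 4 GGGCGG, and the windows of Itga2b, Spn and Cd34 held no match. For comparison, GGGCGG was in 35.7% of all 32851 windows of this length, TGTGGT in 16.8% and AGATAA in 11.2%, so that a match in a single window is a description and no binding site.

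The first question was the order in which the members appear. Cd34 and Cd93 were present from AE on, Cd44 and Procr came up next in conflux AE and pre-HE, Kit followed in HE, and Ptprc was last, in IAC. Taking as the rise of a gene the first stage at which its thinned share reaches 0.5 of its highest share, 5 members rose at the same stage in both libraries: Cd34 and Cd93 in AE, Cd44 in pre-HE, Kit in HE and Ptprc in IAC. Procr rose in pre-HE in the wild-type and in conflux AE in the SP3-null library, and Spn in IAC and in HE. For Itga2b, Ly6a and Ace the stage of the rise moved with the draw of the thinning or with the measure, and no order is read from them.

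**Figure D1:**
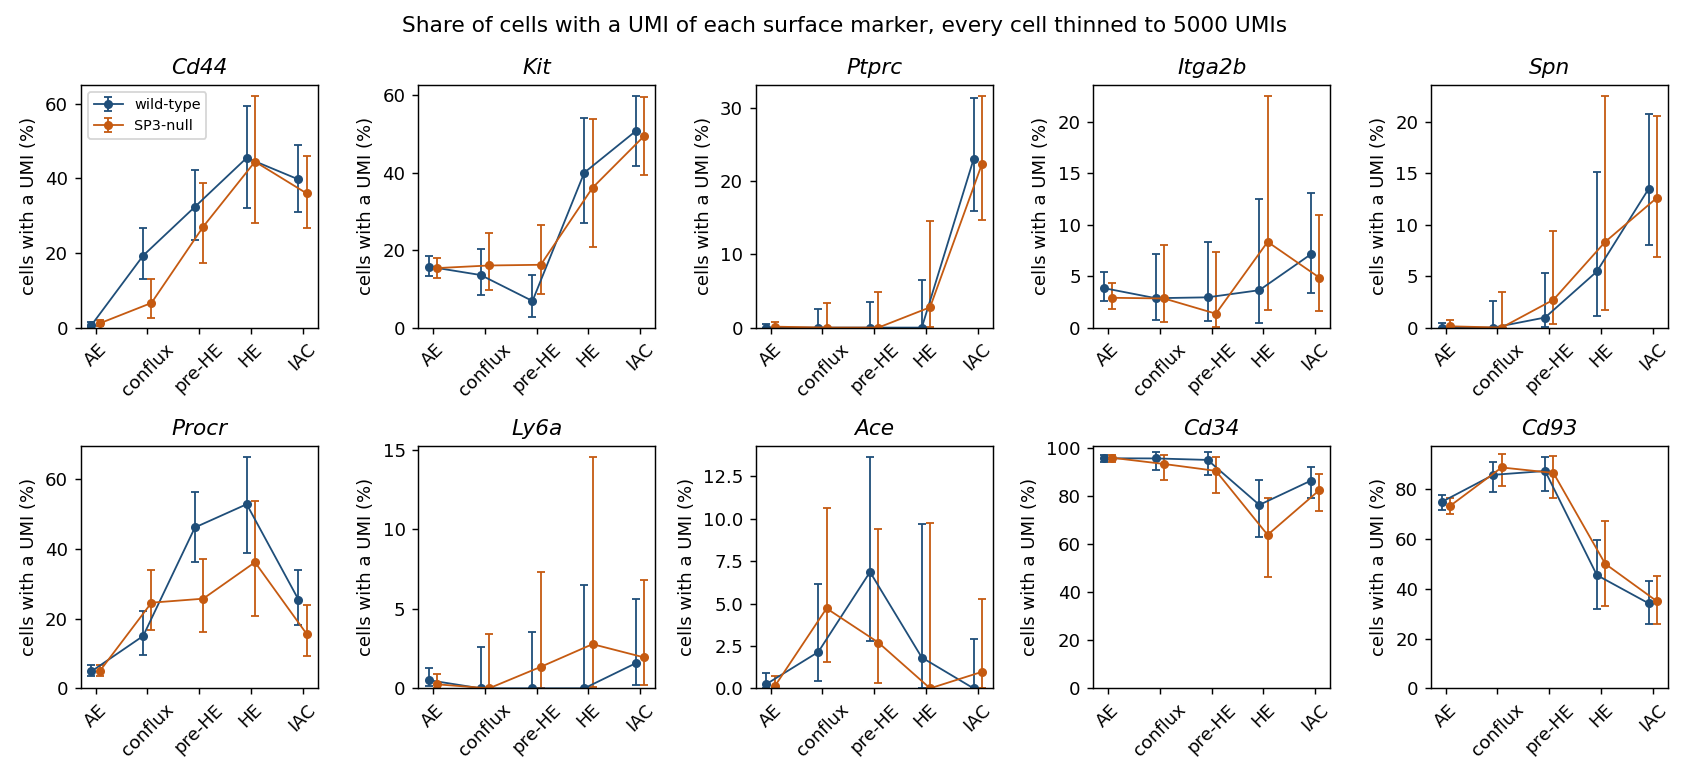
Share of cells with at least 1 UMI of each member (vertical axis, percent) along the 5 stages from AE to IAC, after thinning to 5000 UMIs per cell, wild-type in blue and SP3-null in orange, with bars for the 95% counting interval. Cd44 climbs from 0.639% and 1.13% in AE to about 45% in HE, while Ptprc stays at 0 or a single cell until it reaches 23.0% and 22.3% in IAC.

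Cd44 was the first of the blood-associated members to rise, from a level in AE below those of Kit and Itga2b. AE had 3.19 CPM of it in the wild-type library (47 UMIs) and 2.05 CPM in the SP3-null one (29 UMIs), and conflux AE 34.7 (27.3 to 43.6) and 20.2 (13.6 to 28.9) CPM. It went on to 82.6 and 65.1 CPM in pre-HE and 103 and 104 CPM in HE. In IAC it was at 94.2 and 94.1 CPM. The largest step was thus that into conflux AE, a log2 ratio of 3.44 (2.90 to 4.0) in wild-type and 3.30 (2.52 to 4.09) in SP3-null cells. A further step of 1.25 and 1.69 led into pre-HE, and between HE and IAC the ratio was -0.13 and -0.14 with intervals that spanned 0. Without the marker cells, HE had 119 and 122 CPM, and IAC lay below it by log2 ratios of -0.33 (-0.64 to -0.02) and -0.44 (-0.78 to -0.08). In the classes off this path, both venous classes and other endothelium, Cd44 was at 0.628 to 1.32 CPM.

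Procr moved with Cd44 up to HE and then fell. Its level in AE was 10.6 CPM in the wild-type library and 9.68 CPM in the SP3-null one. It was 32.9 and 57.3 CPM in conflux AE, 120 and 83.0 CPM in pre-HE, and 155 and 89.3 CPM in HE. In IAC it was down to 57.9 and 54.8 CPM, log2 ratios of -1.42 (-1.70 to -1.13) for wild-type and -0.70 (-1.09 to -0.31) for SP3-null cells. The highest shares of cells, in HE, were 52.7% (38.8% to 66.3%) and 36.1% (20.8% to 53.8%). Without the marker cells the log2 ratios of IAC over HE were -1.62 and -0.75. The fall into IAC was past a log2 size of 1 in the wild-type alone, a difference between libraries that was not tested.

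Kit was found in every class. It lay between 22.2 and 39.9 CPM in all classes other than HE and IAC, and its share of cells in AE, conflux AE and pre-HE, 6.86% to 16.2%, lay around that of Wnt-low VE, 13.5% in the wild-type and 12.4% in the SP3-null library at median depths of 14280.5 and 14460.5 UMIs. It then went to 106 (87.6 to 127) and 138 (115 to 165) CPM in HE. The log2 ratio of HE over pre-HE was 2.10 (1.56 to 2.66) and 1.90 (1.34 to 2.50). In IAC it was highest of all classes, at 147 and 165 CPM, with a UMI in 50.8% and 49.5% of thinned cells. Without the marker cells, HE had 114 and 163 CPM of Kit, IAC had 155 and 174 CPM, and the step into HE was 2.18 and 2.14. Kit thus set HE and IAC apart by level, and not by presence.

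Ptprc, the CD45 phosphatase found on blood cells other than red cells, appeared last. No UMI of it was found in wild-type conflux AE, pre-HE or HE, and none in SP3-null conflux AE or pre-HE, where 3 UMIs, taken as the limit that a count of 0 allows, would be 1.41 to 3.37 CPM. SP3-null HE held 5 UMIs in 3 of 40 cells. IAC held 294 UMIs in 80 of 128 wild-type cells (69.7 CPM) and 301 UMIs in 73 of 107 SP3-null cells (86.4 CPM). For the wild-type this is at least 23.2-fold higher than in HE, from the lower bound of IAC over 3 UMIs in the class, and for the SP3-null library the log2 ratio was 3.95 (2.71 to 5.58). IAC supplied 95.1% of the Ptprc UMIs of the wild-type library and 98.0% of those of the SP3-null library. Wnt-low VE, taken as the background class, held 1 and 0 UMIs. Macrophage-marker cells held 29.6% and 31.6% of the Ptprc UMIs of IAC, with Ptprc in 11 of 12 and 10 of 11 of them. Without them IAC was still at 55.6 and 68.1 CPM, from 207 and 206 UMIs.

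Spn, the sialoglycoprotein CD43, came up before Ptprc but slowly. It had 1 UMI in AE of each library, 2 and 0 in conflux AE and 3 in each pre-HE. HE held 11 UMIs (9.78 CPM, 4.88 to 17.5) and 14 UMIs (15.6 CPM, 8.55 to 26.2), and IAC 131 UMIs (31.1 CPM) and 98 UMIs (28.1 CPM). The log2 ratio of IAC over HE was 1.67 in the wild-type and 0.85 in the SP3-null library, and 1.70 and 0.71 (-0.11 to 1.64) without the marker cells. Of the HE cells, 8 of 59 and 11 of 40 cells carried Spn, against 0 and 3 cells with Ptprc. Spn transcripts were therefore in HE in both libraries, at counts where Ptprc was at or near 0.

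Itga2b, the integrin chain CD41, was highest in IAC in the wild-type and in HE in the SP3-null library. IAC supplied 17.0% and 11.2% of its UMIs from 2.88% and 2.71% of the cells. The level of Itga2b was 6.11 and 5.94 CPM in AE and 3.07 to 5.77 CPM in both venous classes and other endothelium. In HE it was at 6.22 CPM (7 UMIs) and 15.6 CPM (14 UMIs), and in IAC at 15.7 CPM (66 UMIs) and 10.3 CPM (36 UMIs). The step from HE to IAC was thus up by 1.33 on the log2 scale in the wild-type and went the other way, at -0.60 (-1.52 to 0.41), in the SP3-null library. Cells with more CD41 protein were gated out, so these levels cannot be read as those of all cluster cells.

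Ly6a and Ace were close to the limit of detection. Ly6a, whose protein is Sca-1, had 91 UMIs in all 8405 cells and lay between 0 and 4.59 CPM in every class, with 9 UMIs in 9 wild-type and 16 UMIs in 11 SP3-null IAC cells. Ace, the enzyme that makes angiotensin II, had 89 UMIs, of which conflux AE and pre-HE together held 44 of the wild-type and 20 of the SP3-null library. It was at 7.98 and 10.1 CPM in conflux AE, 17.6 and 5.61 CPM in pre-HE, and 0 and 1 UMI in IAC. With so few UMIs, Ace can be placed before IAC but not at 1 stage.

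The members shared with endothelium were on from the start. Cd34 was at 743 and 734 CPM in AE, in 95.8% and 96.0% of thinned cells, and Cd93 at 302 and 298 CPM, in 74.8% and 73.2%. Cd34 fell from 774 and 753 CPM in pre-HE to 309 and 307 CPM in HE. Its level in IAC was 439 and 389 CPM. Cd93 was highest in conflux AE, at 477 and 451 CPM, fell to 167 and 173 CPM in HE, and was down to 83.2 and 73.5 CPM in IAC. Both transcripts therefore fell at the step at which Kit rose. Leaving out the cells with neural or macrophage markers, HE had 345 and 361 CPM of Cd34 and 180 and 203 CPM of Cd93, still below pre-HE. Among 45 pairs of members, the levels over 18 values (9 classes in 2 libraries) were most alike for Kit and Spn, with a Pearson r of 0.95, and for Cd44 and Procr, with 0.94. The points of a class share its cells and depth, and these coefficients carry no test.

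**Figure D2:**
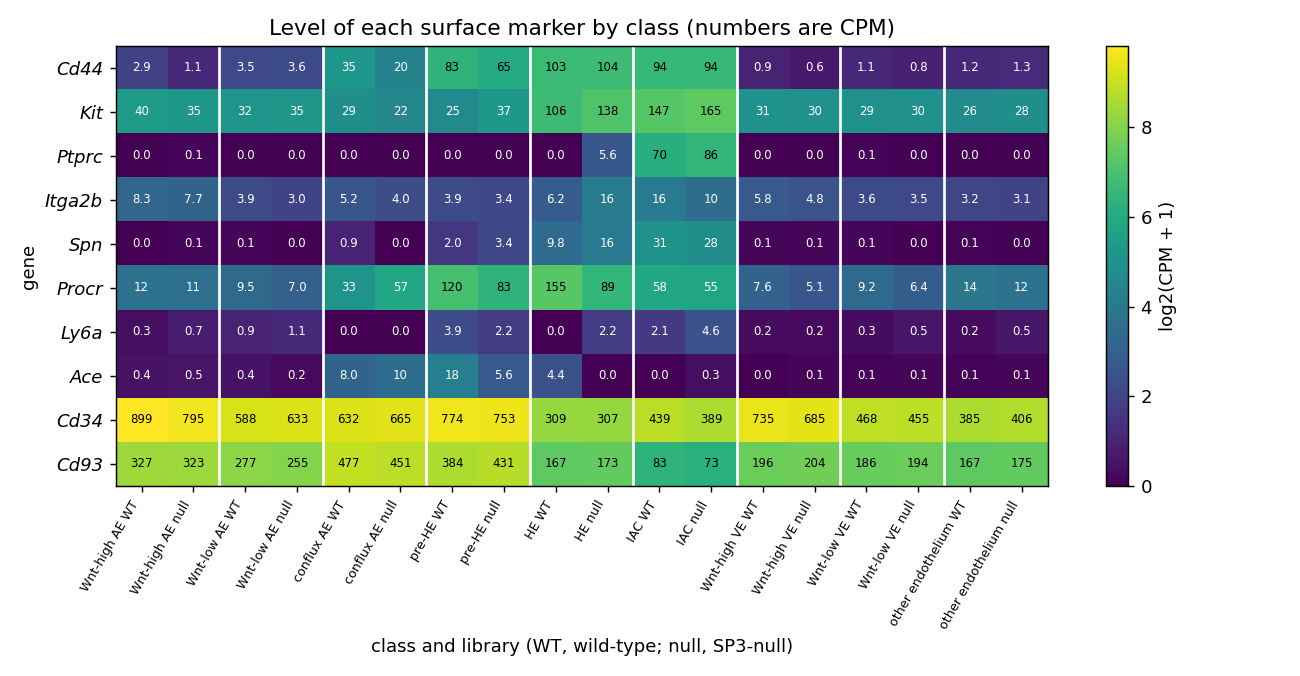
Level of the 10 members (rows) in the 9 classes of each library (columns; WT, wild-type; null, SP3-null), printed in CPM and coloured by log2(CPM + 1). Ptprc and Spn are near 0 outside HE and IAC, Kit and Itga2b are present in every class, and Cd34 and Cd93 are lowest on the path in HE or IAC.

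Between neighbouring stages a gene was counted as changed when its log2 ratio was past 1 in the same direction in both libraries, among genes with at least 50 UMIs over the stages compared. From AE to conflux AE, 2 of 6 members with enough UMIs rose, Cd44 and Procr, and none fell, against 3.76% and 3.16% of all genes. From conflux AE to pre-HE, 1 of 6 rose, Cd44, against 2.43% of genes, and none fell, against 1.58%. From pre-HE to HE, 1 of 5 rose, Kit, against 3.18%, and 2 fell, Cd34 and Cd93, against 6.90%. From HE to IAC, 1 of 8 rose, Ptprc, against 3.53%, and 1 fell, Cd93, against 6.72%. The fall of Cd93 into IAC, -1.01 in the wild-type, lay just past the threshold, at -0.92 with edgeR's TMM factors and -0.93 with DESeq2's size factors. Cd44 was the single member that rose at more than 1 step.

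Other surface markers gave the setting, as a list of 52 genes put together with earlier results known. The 3 with the highest summed level in conflux AE were Cdh5 (VE-cadherin) at 1304 and 1228 CPM, the tetraspanin Cd81 and the sialomucin Emcn. Those highest in IAC were Cd47, the signal that protects cells from being engulfed, at 457 and 508 CPM, Cd81, and the integrin chain Itgb1. Into conflux AE, 9 of 35 such markers rose and 2 fell, against 3.76% and 3.16% of all genes. Into pre-HE, 3 of 31 rose and 2 fell, against 2.43% and 1.58%. Into HE, 6 of 33 rose and 14 fell, against 3.18% and 6.90%. Named after their values were seen, Itga4 and the adhesion receptor Adgrg1 were among those that rose, and Cdh5, Kdr and Tek among those that fell. Into IAC, 12 of 42 rose and 14 fell, against 3.53% and 6.72%. As the list was put together with earlier results known, these counts are not read as an excess. The 5 that rose from 0 UMIs in HE of both libraries were Cd52, Cd48, Flt3, Il7r and Itgam, all known from leukocytes or their progenitors, and they lay between 7.59 and 58.5 CPM in IAC, or between 6.95 and 30.4 CPM without the marker cells. The 5 largest falls were those of Prom1, Mcam, Icam2, Kdr and Cd38, Icam2 from 177.8 and 182 CPM to 33.2 and 31.6 CPM. Ptprc was thus one of several leukocyte transcripts at or near 0 in HE and present in IAC.

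The next question was which members occur in the same cell. Over all 10 members, a thinned cell held a mean of 1.96 and 1.94 in AE, 2.34 and 2.37 in conflux AE and 2.78 and 2.54 in pre-HE. The mean was 2.71 and 2.53 in HE and 2.82 and 2.61 in IAC. Those of HE include the cells with neural markers, which held no member, so no change from pre-HE to HE is read from them. Of the 5 blood-associated members Cd44, Kit, Ptprc, Itga2b and Spn, a thinned cell held 0.20 on average in AE of both libraries, 0.36 (SD 0.55) and 0.25 (SD 0.46) in conflux AE, 0.43 (SD 0.57) and 0.47 (SD 0.67) in pre-HE, 0.95 (SD 0.87) and 1 (SD 0.83) in HE, and 1.34 (SD 1.01) and 1.25 (SD 1.01) in IAC. No cell held all 5. In IAC, 5 wild-type cells and 1 SP3-null cell held 4. At the same depth 19.8% and 28.2% of IAC cells held none.

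Cd44 without Ptprc is the pair of proteins used to sort hemogenic endothelium together with endothelial markers, and the transcripts can be looked at in the same way. Of 3742 thinned wild-type cells, 141 (3.77%) had a Cd44 and no Ptprc UMI, and of 3450 SP3-null cells 90 (2.61%). In the wild-type library 19.1% of them (interval 13% to 26.6%) were conflux AE, 23.4% pre-HE, 17.7% HE and 22.7% IAC. In the SP3-null library conflux AE made up 7.78% (3.18% to 15.4%), pre-HE 22.2%, HE 17.8% and IAC 27.8%. Most of the remainder were endothelial cells off the path. The transcript pair thus drew on at least 4 classes, and 25.4% and 24.3% of IAC cells had it, at a depth where Ptprc is missed in many cells that carry it.

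Within a class, few pairs of members occurred together more or less often than their shares give. Over the 45 pairs, the odds ratio could be computed in both libraries for 24 pairs in IAC, was above 1 in both for 13 and below 1 in both for 3, and no pair had an interval clear of 1 in both libraries in any stage. Cd44 and Ptprc were found together in 18 of 126 wild-type IAC cells, an odds ratio of 3.29 (1.30 to 8.71), and in 12 of 103 SP3-null cells, one of 2.38 (0.83 to 6.88). With cells thinned to 15000 UMIs instead, a depth added after seeing the data, the odds ratios of this pair were 1.09 (0.42 to 2.89) and 0.86 (0.32 to 2.23). The pair is therefore not read as linked.

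At 15000 UMIs, which 117 wild-type and 100 SP3-null IAC cells reached, detection was far more complete. Kit was in 79.5% and 87.0% of IAC cells, Cd44 in 77.8% and 69.0%, Ptprc in 47.9% and 62.0%, Spn in 35.9% and 36.0%, Procr in 36.8% and 32.0%, and Itga2b in 26.5% and 14.0%. These shares come from a single draw. Averaged over all possible draws, Ptprc was in 47.6% and 53.1% and Itga2b in 19.9% and 13.3%, so the libraries lay closer together for both. Of the 56 wild-type cells with Ptprc, 42 had Kit and 20 had Spn, and of the 62 SP3-null cells 52 and 17. Ptprc and Spn were together less often than their shares give in the SP3-null library, with an odds ratio of 0.38 (0.15 to 0.96), while the wild-type odds ratio was 0.98 (0.43 to 2.24). Itga2b and Spn had an odds ratio of 5.66 (1.47 to 27.0) in the SP3-null and 0.98 (0.37 to 2.47) in the wild-type library. Without macrophage-marker cells the first became 0.45 (0.17 to 1.15) and the second 10.3 (1.99 to 104), from 10 of 12 Itga2b cells. These odds ratios rest on the same single draw, and the difference between libraries was not tested for either pair.

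In HE at 15000 UMIs, 9 of 13 pairs with odds ratios in both libraries were above 1 in both, but with the cells of neural or macrophage markers left out it was 2 of 8. The cells with neural markers hold none of the members, so that each of them counts as a cell without both genes of every pair. Among the 34 wild-type and 28 SP3-null HE cells left, Cd44 was in 82.4% and 82.1%, Procr in 88.2% and 71.4%, Kit in 64.7% and 96.4%, Spn in 14.7% and 25.0% and Ptprc in 0% and 10.7%. HE cells that carried Cd44 thus made up most of the class in both libraries once depth allowed it.

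Itga2b, Spn and Ptprc can be in a cell in 8 combinations, and IAC held all of them at 15000 UMIs. In the wild-type library 25.6% of IAC cells had none of these transcripts, 15.4% had Spn alone, 21.4% Ptprc alone, 11.1% Spn and Ptprc, and 6.0% all 3. In the SP3-null library 18% had none, 13% Spn alone, 42.0% Ptprc alone, 13% Spn and Ptprc, and 4.0% all 3. The share with Ptprc alone was higher among SP3-null cells, by 20.6 points (7.6 to 33.1), and by 21.7 points without macrophage-marker cells. This share depends on the draw: averaged over all possible draws it was 23.8% and 35.6%, a difference of 11.9 points, and at 5000 UMIs the difference was 3.54 points (-6.86 to 14.3). IAC cells were thus spread over all combinations, with no single order of gain to be read from them.

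**Figure D3:**
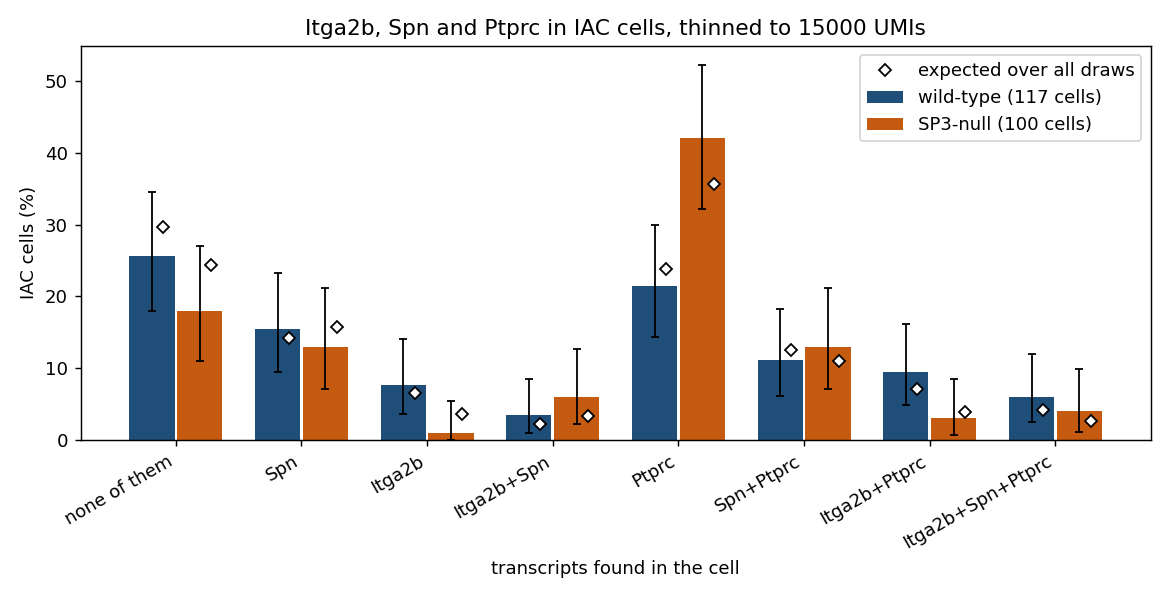
Share of IAC cells (vertical axis, percent) with each combination of Itga2b, Spn and Ptprc transcripts after thinning to 15000 UMIs, in 117 wild-type (blue) and 100 SP3-null (orange) cells, with 95% counting intervals. Open diamonds give the share expected over all draws of the thinning, and Ptprc alone is the most frequent SP3-null combination at 42.0% drawn and 35.6% expected.

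The cells that carried a member differed from those that did not. The splits were chosen after the levels were seen and are descriptions. In IAC, the 32 wild-type and 16 SP3-null cells with a thinned Procr UMI had more of the endothelial genes Cdh5, Esam and Pecam1 than the 94 and 87 without. Wild-type Cdh5 was at 294 against 110 CPM and SP3-null Cdh5 at 364 against 139 CPM, log2 ratios of 1.41 (1.18 to 1.64) and 1.39 (1.13 to 1.65). Esam differed by 1.21 and 1.49 and Pecam1 by 1.03 and 1.21. Gfi1, a repressor that acts in HE to silence endothelial genes, was also higher, by 1.58 (1.02 to 2.14) and 0.95 (0.24 to 1.62), and Kit by 0.48 and 0.77. Runx1, Myb and Ikzf1 had intervals that spanned 0 in both libraries, and C1qb had no UMI in the cells with Procr. Without the marker cells the Cdh5 ratios were 1.16 and 1.20, Esam 1.08 and 1.34, Gfi1 1.46 and 0.73, and Kit 0.32 and 0.70, all with intervals above 0. Not every endothelial gene followed. With the same cells left out, both Kdr intervals spanned 0, at 0.24 (-0.30 to 0.76) for wild-type and 0.33 (-0.56 to 1.14) for SP3-null cells. Tek was higher among wild-type cells with Procr, by 0.80 (0.18 to 1.40), but its SP3-null interval spanned 0, at 0.63 (-0.28 to 1.46). Median depth was lower in the cells with Procr, 26204 against 32312.5 UMIs and 28773 against 30989 UMIs.

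**Figure D4:**
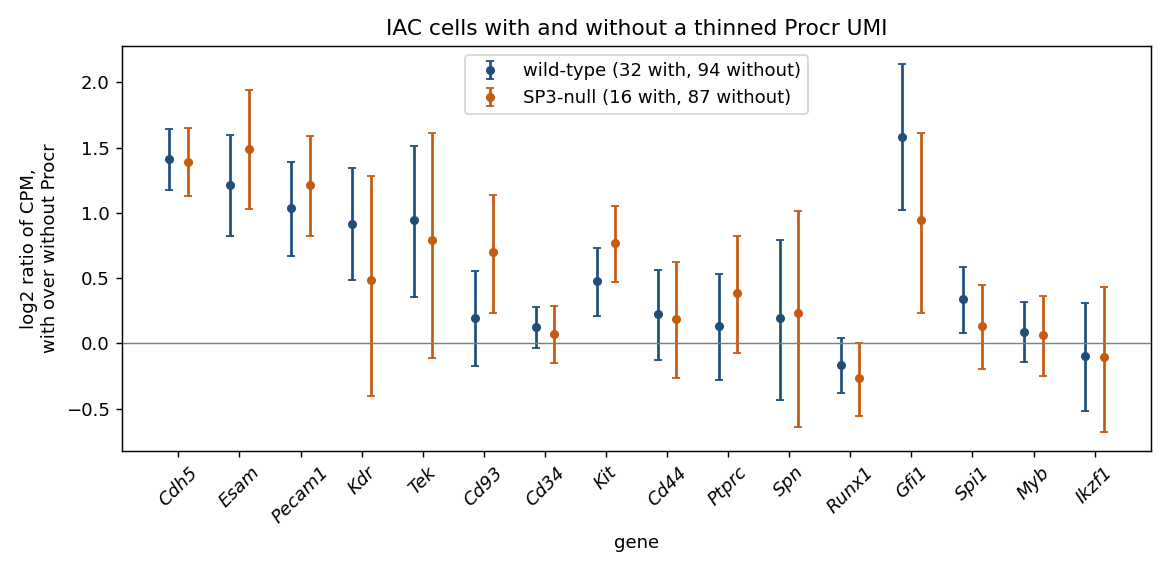
Log2 ratio of CPM in IAC cells with over without a thinned Procr UMI (vertical axis) for 16 endothelial, surface and blood genes, wild-type in blue and SP3-null in orange, with 95% counting intervals. Cdh5, Esam, Pecam1, Kit and Gfi1 lie above 0 in both libraries, Cdh5 at 1.41 and 1.39.

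Cells with Ptprc had less Cdh5 when all IAC cells were counted. In IAC, Cdh5 was at 111 CPM in the 29 wild-type cells with a thinned Ptprc UMI and 160 CPM in the 97 without, a log2 ratio of -0.53 (-0.86 to -0.22), and in the SP3-null library the ratio was -0.86 (-1.20 to -0.53). The macrophage genes Cx3cr1 and Csf1r were higher in the cells with Ptprc, Cx3cr1 by 4.64 and 5.36. Cdh5 itself was at 137 and 30.4 CPM in the macrophage-marker cells of IAC, against 152 and 192 CPM in the other IAC cells. Without the marker cells the Cdh5 ratio was -0.31 (-0.64 to 0.01) and -0.55 (-0.89 to -0.21), so that the wild-type interval spanned 0. The endothelial genes Pecam1, Esam, Kdr and Tek then had intervals that spanned 0 in both libraries. Procr went the other way from Cdh5 and was higher in cells with Ptprc. With marker cells left out, its wild-type ratio was 0.48 (0.02 to 0.93), from 57 UMIs in 26 cells with Ptprc. Its SP3-null ratio was 1.73 (1.30 to 2.16), from 86 UMIs in 17 such cells. Cells with Procr and cells with Ptprc are therefore not read as opposite groups. In conflux AE, the 27 wild-type and 7 SP3-null cells with Cd44 had more of Pecam1, by 0.66 (0.47 to 0.85) and 0.57 (0.20 to 0.92), of Efnb2, an arterial ephrin, by 0.49 and 0.71, and of the arterial connexin gene Gja5 by 0.45 and 1.09. Dll4, Bmx, Hey2 and Tek had intervals that spanned 0 in both libraries. In HE, the 25 and 16 cells with Cd44 had more Cd34, by 0.60 and 0.42, than the other HE cells. Without the cells of neural or macrophage markers, none of which is among those with Cd44, the ratio was 0.32 (-0.01 to 0.64) and -0.02 (-0.38 to 0.33), and no difference is read from HE. In conflux AE the cells with Cd44 thus had more of some endothelial and arterial transcripts, and for others no difference was detectable at this depth.

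Finally, the members were compared between the SP3-null and the wild-type library within each class. A ratio was called at a log2 size of 0.5 or more, among genes with at least 50 UMIs in the class. Of 48 combinations of member and class with enough UMIs, 8 were called, and Procr made up 5 of them. In conflux AE 2 of 5 members were called, against 11.3% of all genes, in pre-HE 2 of 5 against 14.7%, in HE 1 of 5 against 15.3% and in IAC 1 of 8 against 9.36%. In Wnt-high VE 1 of 5 was called against 6.11%, and in Wnt-low VE 1 of 5 against 6.07%. No member was called in Wnt-high AE, Wnt-low AE or other endothelium, where 7.02%, 6.57% and 6.69% of genes were. With so few members in a class, a single call is 1 in 5 or 1 in 8, and such counts are not read as an excess.

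Procr was lower in the SP3-null library in 8 of 9 classes, with an interval below 0 in 5, and higher in conflux AE. The log2 ratio was -0.53 (-0.94 to -0.13) in pre-HE, -0.79 (-1.19 to -0.40) in HE, -0.57 in Wnt-high VE and -0.54 in Wnt-low VE, and in conflux AE it was 0.80 (0.33 to 1.28). The direction in pre-HE turned to 0.55 when all cells with at least 2 UMIs over the macrophage, germ cell, mesenchyme or neural lists were left out, which removed 91 of 136 wild-type and 48 of 92 SP3-null cells. The ratio in HE was -1.44 under that filter. The share of pre-HE cells with Procr was 46.1% and 25.7%, a difference of -20.4 points (-34.3 to -5.23), or 40.7% and 28.1% over all draws of the thinning. In IAC the ratio was -0.08 (-0.36 to 0.20), and 0.12 (-0.17 to 0.41) without the marker cells.

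Cd44 was lower in SP3-null conflux AE, by a log2 ratio of -0.78 (-1.44 to -0.15), from 74 and 30 UMIs. A Cd44 UMI was found in 27 of 140 and 7 of 106 thinned cells, 19.3% and 6.60%, or 16.9% and 8.96% over all draws. The ratio was -0.48 among cells with a mitochondrial share of at most 0.1, which is under the threshold. It was -0.34 (-0.82 to 0.11) in pre-HE, 0.01 (-0.40 to 0.42) in HE and -0.00046 (-0.22 to 0.21) in IAC. In Wnt-high AE, with 21 and 10 UMIs too few for a call, it was -1.35 (-2.60 to -0.20). The ratio was thus negative in conflux AE and close to 0 in HE and IAC, and the difference between these stages was not tested.

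Kit in HE had a ratio of 0.39 (0.01 to 0.76), under the threshold, and 0.52 (0.13 to 0.90) without the marker cells, past it. With each cell weighted alike it was -0.01, and -0.43 without the cells of the 4 marker lists, so that no direction is read from it. Kit in pre-HE had a ratio of 0.58 (-0.14 to 1.29) and Itga2b in IAC one of -0.60 (-1.23 to 0.01), both past the threshold with an interval that spanned 0. Without the marker cells Itga2b in IAC was at -0.75 (-1.43 to -0.10), an interval below 0. Itga2b was lower in all 5 classes with enough UMIs, with an interval below 0 in none when all cells were kept. Ptprc in IAC was at 0.31 (0.07 to 0.55), and at 0.29 (0.01 to 0.58) without the marker cells, under the threshold. Spn in IAC was at -0.14 (-0.54 to 0.24). Cd34 lay between -0.18 and 0.11 over the 9 classes and Cd93 between -0.18 and 0.17, from up to 12303 UMIs a class. For both, differences past 0.5 in size lay outside the counting interval in every class.

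**Figure D5:**
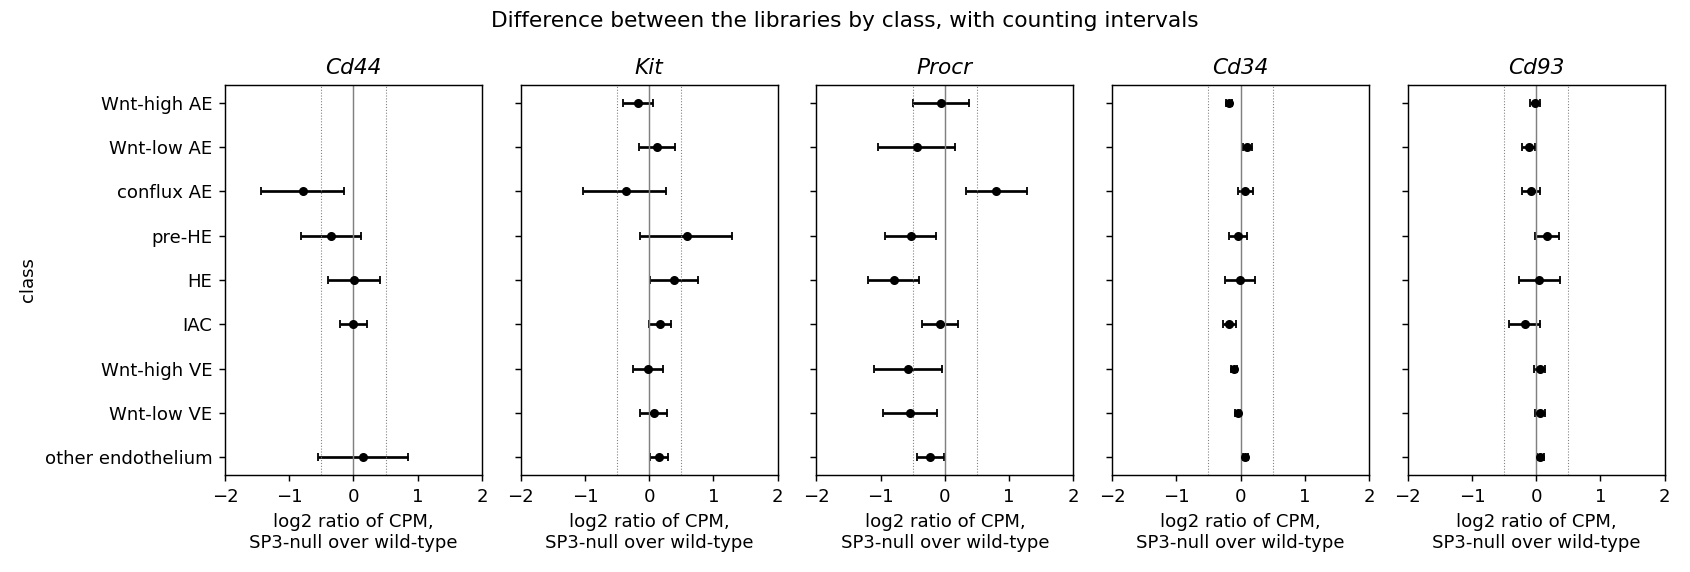
Log2 ratio of CPM, SP3-null over wild-type (horizontal axis), in each class with enough UMIs (vertical axis) for Cd44, Kit, Procr, Cd34 and Cd93, with 95% counting intervals. Itga2b had enough UMIs in 5 classes, as many as Cd44, and is not shown. Dotted lines mark the threshold of 0.5, which Procr passes upward in conflux AE (0.80) and downward in pre-HE, HE and both venous classes, while Cd34 and Cd93 stay near 0.

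Genes with the most similar pattern were looked for among 10983 genes with at least 200 UMIs, by Pearson correlation of log2(CPM + 10) over the same 18 values. Nearest to Cd44 were Setbp1 (r = 0.99) and Aes (0.98), to Kit Med12l and the blood transcription factor gene Myb (both 0.98), and to Procr Slc18a2 and Aes (both 0.97). Nearest to Ptprc were Pstpip1 (0.996) and the neutrophil protease gene Prtn3 (0.995), to Spn Angpt1 and Celf2 (both 0.99), and to Itga2b Ank (0.93) and 1600014C10Rik (0.92). For Ly6a they were Tmem63a (0.90) and Polr3b (0.86), for Ace Il2rg (0.96) and Bcl3 (0.94), for Cd34 Ccdc125 (0.93) and Slc35a2 (0.92), and for Cd93 the collagen genes Col4a2 and Col4a1 (both 0.99). Chosen as the highest of many genes, these coefficients are descriptions without a test.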

How the data were processed

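Single cells were captured by 10x 3′ v3 chemistry, and the authors aligned and counted them with Cell Ranger (version not given in the sources used here) on mm10 (GRCm38), per the submitters' processing notes. The deposited matrix holds raw UMI counts, and its cell table, made by the authors, holds the library, the class and a mitochondrial fraction of each cell. That fraction is part of the deposited cell table and served as a filter in an alternative. In the cell table, 2 further per-cell columns were not used. Deposited totals differed from the matrix sums by up to 197 UMIs, and the sums were used. The lowest number of genes detected in a cell was 998.

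The 10 members, the marker lists and the rules were chosen with earlier results of these data known. Counts were summed by class and library and divided by the class total. With 1 library per genotype no test was run. Intervals were Poisson for CPM, Clopper-Pearson for shares, exact conditional for ratios and odds ratios, and Newcombe's method for differences of shares. Cells were thinned once (seed 7) to 5000 UMIs, and the expected share over all draws was computed beside it. The drawn share lay a median of 0.744 and at most 8.97 points from the expected one. Scaling by edgeR 4.0.16 (TMM) and DESeq2 1.42.0 size factors, other UMI minimums, thinning depths, cells weighted alike and filters on cells were tried. Chosen after seeing the data were thinning to 15000 UMIs, the expected shares, leaving out the 5 shared barcodes and the cells with neural or macrophage markers, a minimum share of 5% and equal weights between stages. Splits of cells by Cd44, Procr and Ptprc were also chosen after seeing the data, and splits by Spn, Itga2b, Ly6a and Kit were computed and left out. Scrublet marked 0 wild-type and 1 SP3-null cell (0.0253%) and did not work, so that doublets remain among the cells. A single cell classed as fetal liver stem cell was left out of all classes.

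The named genes were all 10 members, of the other surface markers the 3 highest in IAC and in conflux AE and up to 5 per direction by size between HE and IAC, and for each member the 2 genes of most similar pattern. Python 3.11.15, numpy 2.4.6, scipy 1.17.1, pandas 2.3.3, scanpy 1.11.5, matplotlib 3.10.9 and R 4.3.3 were used, and the interval code was tested on simulated data.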

Additional observations from a re-analysis of the deposited data

Results flagged for a closer look

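Procr was the member with ratios past 0.5 in both directions between the libraries, while Cd34 and Cd93 also had intervals on both sides of 0 but at ratios of no more than 0.18 in size. The log2 ratio of SP3-null over wild-type was 0.80 in conflux AE, and -0.53 in pre-HE, -0.79 in HE, -0.57 in Wnt-high VE and -0.54 in Wnt-low VE. In pre-HE the sign turned under the filter on the macrophage, germ cell, mesenchyme and neural lists. That filter removed 91 of 136 wild-type and 48 of 92 SP3-null pre-HE cells. The neural list was at 843 and 526 CPM in pre-HE as a whole, so the filter also acts on what is common in the class. The difference between these ratios was not tested, since each class has 1 library per genotype.

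One wild-type cell had been assigned to a fetal liver stem cell class and entered no comparison. It held 104553 UMIs, of which 15 were Cd44, 14 Kit and 14 Ptprc, with 2 of Itga2b and none of the other members. Such a total is above 3 times the median of IAC, and whether the cell is a doublet was not tested.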

How the results depend on the processing

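No paired analysis was possible because each genotype was 1 library, and no library could be left out. The 5 members that rose at the same stage in both libraries became 8 with 0.25 of the highest share as the mark. Co-detected pairs above 1 in both libraries in IAC went from 13 to 5 at 3000 UMIs. Of 7 members in at least 10% of IAC cells in both libraries, 2 were left when 2 or more UMIs were asked for. The 8 steps between stages became 13 with a minimum of 10 UMIs, and 7 with TMM or DESeq2 factors. The 8 ratios called between libraries became 16 with a minimum of 10 UMIs, 3 with 200, 5 with a mitochondrial share of at most 0.1, and 4 without cells holding macrophage, germ cell, mesenchyme or neural markers. That last filter removed 111 of 128 wild-type and 98 of 107 SP3-null IAC cells. Under it the Procr ratio in pre-HE turned to 0.55. Of 425 single ratios recomputed, 411 lay within the counting interval, 13 moved and 1 changed sign. Without the 5 shared barcodes 8 ratios were called. Depth limits Ly6a, Ace, Itga2b and Spn, and 15000 UMIs were reached by 38 and 32 HE cells. The causes were not tested.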
